A study of Mus musculus with 18 samples.

Results

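Of the genes that make and run a melanocyte, 9 were followed here through knockdown of Hgs in B16F10 mouse melanoma cells: the transcription factors Mitf, Sox10 and Pax3, the receptors Mc1r and Ednrb, the small GTPases Rab32 and Rab38, and the melanosome carriers Mlph and Myo5a. They were chosen by symbol, as 9 of the 23453 symbols of the deposited count table, and each was found. RNA was sequenced from 8 cultures and 10 tumours, 18 libraries in all. B16F10 is a melanoma line from the C57BL/6 strain, and every sample held these cells after infection with a lentiviral pLKO.1 vector and drug selection. In the samples labelled shHrs the vector carried an shRNA against Hgs, the gene of the endosomal sorting protein Hrs, and in those labelled shCTL a scrambled shRNA. The cultures formed 2 batches, each with 2 shCTL and 2 shHrs libraries. The tumours, 5 shCTL and 5 shHrs, had been grown in wild type immunocompetent female C57BL/6 mice of 6 to 8 weeks. The model lowers Hgs and does not delete it, rests on a single cell line, and in tumours includes RNA of host cells. Per the labels these are biological repeats. Whether each culture had its own infection is not stated. A p-value here sets the difference between groups against the spread of these libraries, part of which may be technical.

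MITF is the master transcription factor of the melanocyte lineage and switches on the genes of pigment synthesis. SOX10 and PAX3, factors of the neural crest, act together on the Mitf promoter. MC1R receives melanocyte-stimulating hormone and raises cyclic AMP, which acts through CREB on the same promoter, and EDNRB receives endothelins and is needed for melanoblasts to spread through the embryo. RAB32 and RAB38 deliver pigment enzymes from endosomes to the maturing melanosome. Mature melanosomes are then held on actin by a chain of RAB27A, melanophilin (MLPH) and the motor myosin Va (MYO5A), and loss of any link gives the diluted coat colours of the ashen, leaden and dilute mice.

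Promoter windows show where the shared regulators could meet these genes. RefSeq windows on GRCm38.p6 were found for 6 of the 9 genes, and Sox10, Pax3 and Rab38 had no entry. Each window was searched over its 250 bases before the start, on both strands, for 4 motifs. They were CATGTG, an E-box that MITF binds, CACGTG, the symmetric E-box, the SOX motifs ACAATG and ACAAAG, and TGACGTCA. The last is the cyclic AMP response element bound by CREB. Matches of different motifs did not overlap. The 3 windows below are shown because they hold the regulator's own response element and the E-boxes of a receptor and a carrier. Capitals mark the motifs, and each run reads 5′ to 3′ on the plus strand, ending before the first base of any GENCODE transcript in the window. Distances are counted from the RefSeq start, which for Mlph (90915100) lies 15 bases inside the GENCODE gene.
Mitf, melanocyte start, chr6:97991533-97991782: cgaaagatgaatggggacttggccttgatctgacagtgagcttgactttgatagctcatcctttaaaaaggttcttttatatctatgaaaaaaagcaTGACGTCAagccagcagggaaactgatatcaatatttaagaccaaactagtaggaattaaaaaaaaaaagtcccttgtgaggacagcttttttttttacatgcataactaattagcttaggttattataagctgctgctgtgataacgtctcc
Mc1r, chr8:123406832-123407081: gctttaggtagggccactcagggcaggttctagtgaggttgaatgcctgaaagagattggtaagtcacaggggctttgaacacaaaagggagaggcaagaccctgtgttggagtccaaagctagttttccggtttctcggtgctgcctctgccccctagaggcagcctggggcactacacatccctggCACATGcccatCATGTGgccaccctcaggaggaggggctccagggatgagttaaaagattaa
Mlph, chr1:90914850-90915084: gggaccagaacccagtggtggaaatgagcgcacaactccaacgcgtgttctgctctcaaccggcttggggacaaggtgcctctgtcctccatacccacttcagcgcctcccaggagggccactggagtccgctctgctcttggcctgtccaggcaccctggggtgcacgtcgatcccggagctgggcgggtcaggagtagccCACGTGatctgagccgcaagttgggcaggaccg

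The Mitf window is that of the start farthest 3′ of its 3 RefSeq starts, the one used by the melanocyte form of the protein, and held the cyclic AMP element 153 to 146 bases before the start. This element is in 1.55% of the 32851 promoter windows of that length. Mc1r held CATGTG 2 times, at 62 to 57 bases on the minus strand and at 51 to 46 on the plus strand. This motif is in 12.3% of all windows. Mlph held the symmetric E-box, present in 6.02% of windows, at 48 to 43 bases before its RefSeq start. In Myo5a the only match was ACAATG, a SOX motif 50 to 45 bases before the RefSeq start (75071206), which puts it inside a GENCODE transcript that starts farther 5′ (75071015) and not before it. That motif is found in this form or as ACAAAG in 25.2% of windows. Rab32, Ednrb and the other starts of Mitf held none of these letters. A match is a description of the sequence and was not tied to binding in these cells.

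Levels are given as CPM (counts per 1 M counts of the library, with library sizes scaled by TMM), and changes as log2 fold changes of shHrs over shCTL from edgeR's quasi-likelihood test, called at a Benjamini-Hochberg adjusted p under 0.05 over all genes tested. Libraries held 17.6 to 27.7 M counts (M, mega). Hgs itself stood at 94.99 and 113 CPM in shCTL and 35.2 and 30.4 CPM in shHrs of batch 1, at 97.8 and 107 against 44.5 and 41.2 CPM in batch 2, and at 95.8 to 112 against 16.1 to 29.1 CPM in tumours. Its fitted change was -1.67 (SE 0.22) in batch 1, -1.30 (SE 0.22) in batch 2 and -2.28 (SE 0.16) in tumours, with edgeR adjusted p of 0.103, 0.0268 and 0.000106. Hgs was lower in every shHrs library than in any shCTL library of its set, though in batch 1 it did not pass by edgeR and did by DESeq2 (adjusted p = 8.58e-07) and by edgeR with no filter on low counts (0.000305). All 8 melanoma markers (Tyr, Tyrp1, Dct, Pmel, Mlana, S100b, Slc45a2, Gpr143) were over 1 CPM in each of the 18 libraries.

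The shHrs replicate 2 of batch 1 stood apart from the other 3 libraries of its batch, and it touches every batch 1 value below. In it 926 of 12897 tested genes (7.18%) lay over 2-fold below all 3 others and 612 (4.75%) over 2-fold above them. Such counts were not made for the other 3 libraries, so there is no baseline for these shares. The stress genes Atf4, Ddit3 and Trib3, picked after their values were seen, were at 987, 739 and 1038 CPM there against 251 to 586, 66.4 to 223 and 59.8 to 259 CPM in the other 3. Their part in the values below was not tested. Batch 1 changes are given with both shHrs libraries first, and with either one alone in later paragraphs on the members and the lists.

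Mitf lies at chr6:97807052-98021349 on the plus strand of GRCm38, and the counts pool its transcripts. In batch 1 it was at 295 and 275 CPM in shCTL and at 393 and 57.9 CPM in shHrs. The shHrs libraries lay on either side of the controls, one above and one far below. Batch 2 gave 185 and 135 CPM in shCTL and 209 and 147 CPM in shHrs, which overlap. In tumours Mitf reached 1222, 1288, 942, 1160.0 and 835 CPM in shCTL and 831, 975, 792, 631 and 1288 CPM in shHrs. Of the shHrs tumours 4 lay in or below the lower range of the controls, while replicate 5 matched the highest control. The fitted changes, by edgeR, were -0.33 (SE 0.70, adjusted p = 0.892) in batch 1, 0.10 (SE 0.70, adjusted p = 0.937) in batch 2 and -0.28 (SE 0.18, adjusted p = 0.548) in tumours. The lowest tumour, at 631 CPM, lay above the highest culture, at 393 CPM, but no test was made of levels between tumours and cultures, which also differ in the host cells they hold.

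Sox10 (chr15:79154908-79165240, minus strand) varied least of the 9 genes over the 10 tumours, with a coefficient of variation of 7.22%. Its batch 1 values were 608 and 652 CPM in shCTL and 656 and 246 CPM in shHrs, and its batch 2 values 550.0 and 402 against 521 and 489 CPM. The outlying library of batch 1 was the lowest of the 8 cultures, and the 4 libraries of batch 2 lay below the other 3 of batch 1. Tumours held 736, 755, 694, 784 and 627 CPM in shCTL and 705, 803, 724, 673 and 742 CPM in shHrs, with means of 719 ± 61.2 and 729 ± 48.4 CPM (SD, n = 5 each). The tumour change was 0.01 (SE 0.08, edgeR adjusted p = 0.957), and those of the batches were -0.48 (SE 0.42, adjusted p = 0.733) and 0.04 (SE 0.42, adjusted p = 0.964).

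Pax3 (chr1:78101267-78197134, minus strand) had changes of opposite sign in the 2 culture batches, neither of which was called. It was at 138 and 142 CPM in shCTL and 199 and 353 CPM in shHrs of batch 1, and at 170.3 and 213 CPM in shCTL and 156 and 137 CPM in shHrs of batch 2. Every shHrs library was above the controls in batch 1 and below them in batch 2. The changes were 0.96 (SE 0.29, edgeR adjusted p = 0.410) and -0.44 (SE 0.29, adjusted p = 0.351), and their difference, -1.40 (SE 0.41), did not pass by edgeR (adjusted p = 0.133) but did by DESeq2 (adjusted p = 0.0440). Tumours gave 244, 203, 202, 186 and 174 CPM in shCTL and 174, 174, 168, 126 and 199.8 CPM in shHrs, overlapping groups with a change of -0.27 (SE 0.12, adjusted p = 0.342).

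Mc1r lies at chr8:123407107-123410744 on the plus strand, and 653 bases (17.9%) of its exonic length overlap an antisense gene, so without a stated strand setting reads of the 2 cannot be told apart there. It had 247 and 157 CPM in shCTL and 246 and 26.4 CPM in shHrs of batch 1. The outlying library was again the low one. In batch 2 the shCTL libraries held 139 and 123 CPM and the shHrs libraries 88.7 and 72.9 CPM, with no overlap and a change of -0.74 (SE 0.78, edgeR adjusted p = 0.560). The fit shares its estimate of spread with batch 1, where the change was -0.55 (SE 0.78, adjusted p = 0.834). Tumour values were 226, 219, 215, 218 and 188 CPM against 178, 205, 188, 179 and 202 CPM, a change of -0.17 (SE 0.07, adjusted p = 0.314), and the groups overlapped through shCTL replicate 5.

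Ednrb (chr14:103814625-103844402, minus strand) was near 0 in the cultures. A single count was found in shCTL replicate 1 of batch 1 and in shHrs replicate 2 of batch 2, and none in the other 6 cultures, where a count of 0 allows up to 3 counts, or 0.113 to 0.165 CPM over the 8 libraries. It was not tested there. Tumours held 8.11, 13.1, 12.1, 12.1 and 20.7 CPM in shCTL and 17.5, 10.04, 11.3, 12.2 and 13.5 CPM in shHrs, a change of -0.04 (SE 0.23, edgeR adjusted p = 0.966). The signal was thus found in tumours and did not separate the knockdown from the control. Endothelial markers (Pecam1, Cdh5 and 8 others) summed to 134 to 250 CPM in tumours against 18.6 to 43.2 CPM in cultures, and their part in the Ednrb level was not tested.

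**Figure D1:**
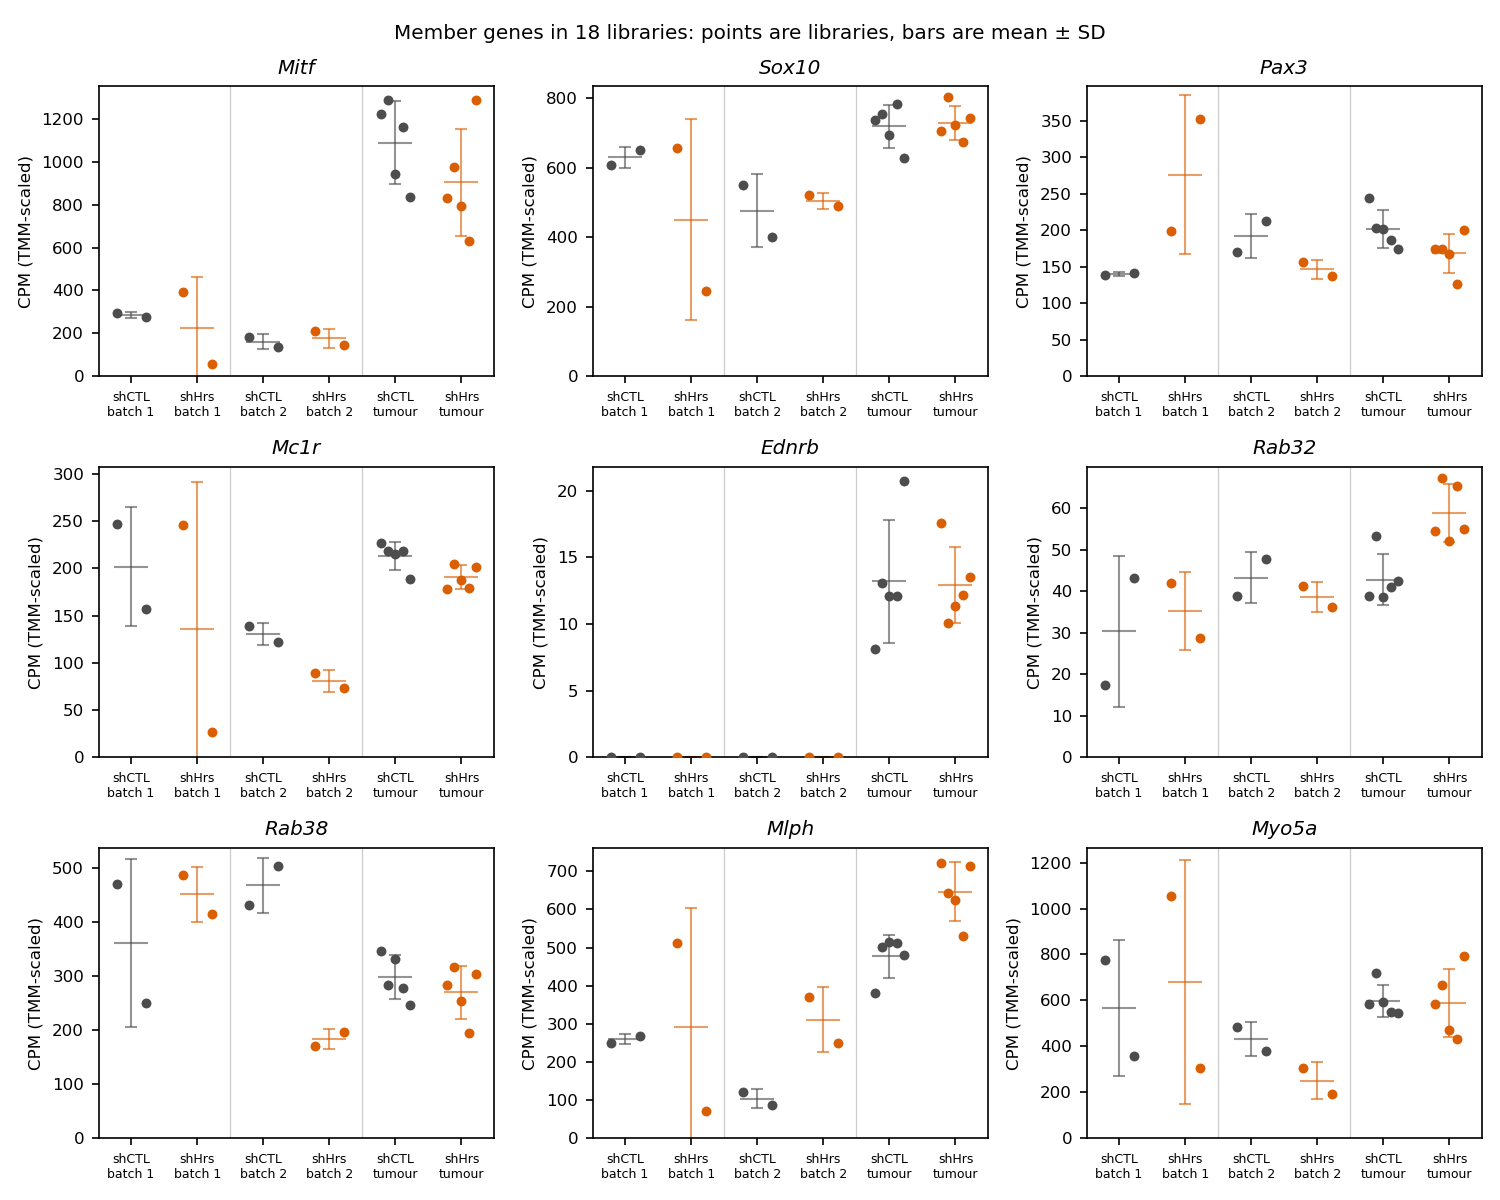
CPM of each gene (vertical axes, linear from 0) in the 18 libraries, by batch or tumour and by shRNA; points are libraries, and bars are the group mean ± SD, cut off at 0. The split of the 2 batch 1 shHrs libraries in Mitf, Mc1r and Mlph, the lower Rab38 in batch 2 shHrs (171 and 197 CPM) and the higher Mlph in shHrs tumours can be seen.

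Rab38 (chr7:88430273-88491572, plus strand) was the 1 gene of the 9 that passed the main test in any comparison. Its batch 2 controls held 432 and 505 CPM and the shHrs libraries 171 and 197 CPM. It fell by 1.39 on the log2 scale (SE 0.31, edgeR adjusted p = 0.0495), and DESeq2 gave an adjusted p of 0.00157. The call was marginal: the adjusted p was 0.0507 with RLE size factors and 0.0526 with upper-quartile scaling, and 0.160 to 0.324 when any 1 of the 4 batch 2 libraries was left out, in a range of 0.000376 to 0.324 over 15 alternatives. Batch 1 held 471 and 251 CPM in shCTL and 488 and 415 CPM in shHrs, a change of 0.32 (SE 0.31, adjusted p = 0.752). The difference between the batches was -1.72 on the log2 scale (SE 0.44), with an adjusted p of 0.108 by edgeR and 0.0111 by DESeq2. Tumours had 347, 284, 332, 279 and 247 CPM in shCTL and 284, 317, 254, 194 and 304 CPM in shHrs, which overlap (change -0.15, SE 0.13, edgeR adjusted p = 0.686).

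Rab32 (chr10:10545002-10558265, minus strand), the close relative that can stand in for Rab38 in pigment cells, had a positive change in tumours that DESeq2 called and edgeR did not. Its culture values were low and overlapping, with 17.5 and 43.1 CPM in shCTL and 41.9 and 28.7 CPM in shHrs of batch 1, and 38.9 and 47.6 against 41.2 and 36.1 CPM in batch 2. The changes were 0.21 (SE 0.41, edgeR adjusted p = 0.884) and -0.21 (SE 0.41, adjusted p = 0.763). Tumours gave 38.7, 53.2, 38.7, 41.0 and 42.4 CPM in shCTL and 54.5, 67.1, 52.1, 65.3 and 55.0 CPM in shHrs. Only shCTL replicate 2 reached into the shHrs range. The change was 0.45 (SE 0.11), with an adjusted p of 0.104 by edgeR and 0.0102 by DESeq2.

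Mlph (chr1:90915085-90951142, plus strand), the adaptor between RAB27A and myosin Va, had the highest coefficient of variation over the 8 cultures, 62.3%, leaving out Ednrb. Its values were 250.5 and 269 CPM in shCTL and 513 and 70.9 CPM in shHrs of batch 1. In batch 2 they were 122 and 86.7 CPM in shCTL and 371 and 251 CPM in shHrs, with no overlap. Mlph in tumours was at 380, 503, 514, 511 and 479.9 CPM in shCTL and 722, 644, 624, 531 and 713 CPM in shHrs, so every shHrs tumour lay above every control. The means were 477 ± 56.2 and 647 ± 77.1 CPM (SD, n = 5 each). The change was 0.18 (SE 0.72, edgeR adjusted p = 0.951) in batch 1, 1.53 (SE 0.73, adjusted p = 0.214) in batch 2 and 0.43 (SE 0.11, adjusted p = 0.104) in tumours. None of these passed by edgeR, and by DESeq2 the tumour change did (adjusted p = 0.00376). With each tumour left out in turn, the edgeR value in tumours was 0.37 to 0.49, with an adjusted p of 0.0425 to 0.229. The lowest was without shHrs tumour 4. Over the 18 alternatives, DESeq2 among them, the adjusted p in tumours ran from 0.00376 to 0.818. With each culture left out in turn, the batch 2 value was 1.20 to 1.83. Each of those culture fits left a lone library in a group, so effect sizes alone are given.

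Myo5a (chr9:75071015-75223688, plus strand), the motor that Mlph recruits, differed in direction from its partner in batch 2. It had 776 and 359 CPM in shCTL and 1055 and 305 CPM in shHrs of batch 1, and 484 and 378 CPM in shCTL and 306 and 193 CPM in shHrs of batch 2. Both genes were high in shHrs replicate 1 and low in replicate 2 of batch 1, but in batch 2 the shHrs libraries were the lower ones for Myo5a and the higher ones for Mlph, without overlap. Tumours held 585, 718, 594, 548 and 546 CPM in shCTL and 583, 668, 473, 432 and 795 CPM in shHrs, with overlap in full. The changes were 0.27 (SE 0.58, edgeR adjusted p = 0.893), -0.84 (SE 0.59, adjusted p = 0.379) and -0.03 (SE 0.15, adjusted p = 0.962).

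**Figure D2:**
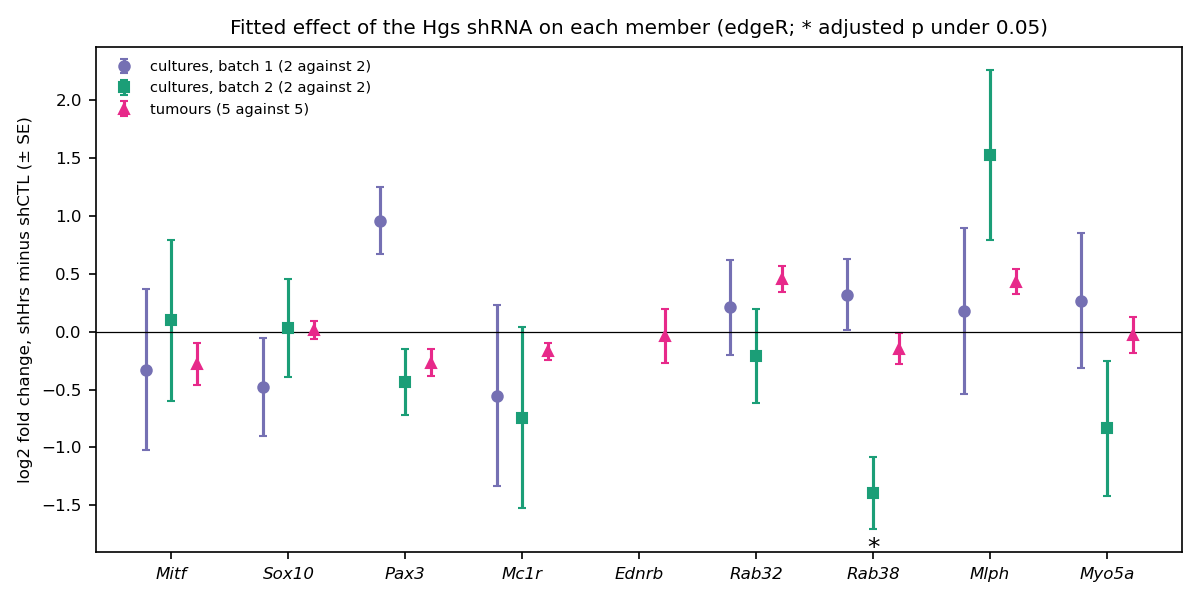
Fitted log2 fold change of shHrs over shCTL (vertical axis) ± SE for each gene in batch 1, batch 2 and tumours, from edgeR. The star marks Rab38 in batch 2, the 1 call, at -1.39; Ednrb is shown in tumours alone, because it was not tested in cultures.

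Ratios of 2 genes within a library do not depend on how libraries are scaled, and Mlph was set against Mitf, Myo5a and Rab38 in this way after the values had been seen, so the ratios are a description with no test. The ratio of Mlph to Mitf counts was 0.848 and 0.978 in shCTL and 1.30 and 1.22 in shHrs of batch 1. In batch 2 it was 0.656 and 0.640 in shCTL and 1.77 and 1.71 in shHrs. Even the outlying batch 1 library, in which both genes were low, thus had a ratio close to that of its partner and above both controls. Tumours ranged from 0.311 to 0.575 (median 0.441) in shCTL and from 0.553 to 0.869 (median 0.788) in shHrs, where 1 shHrs tumour overlapped 1 control. The ratio of Mlph to Myo5a counts separated batch 2 (0.251 and 0.229 against 1.21 and 1.30) but not batch 1 (0.323 and 0.749 against 0.486 and 0.233). In tumours it ran from 0.649 to 0.933 in shCTL and from 0.896 to 1.32 in shHrs. The ratio of Mlph to Rab38 counts was 0.281 and 0.172 against 2.17 and 1.27 in batch 2 and 1.09 to 1.94 against 2.03 to 2.74 in tumours, both without overlap. In batch 2 Mlph alone was higher and Rab38 and Myo5a lower without overlap, so those ratios had to separate there. Mlph alone also separated the tumours. Groups of single genes did not overlap for 32.1% of genes in batch 1, 69.7% in batch 2 and 4.28% in tumours. No such share was computed for ratios. In batch 1 that ratio did not separate the groups (0.532 and 1.07 against 1.05 and 0.171).

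**Figure D3:**
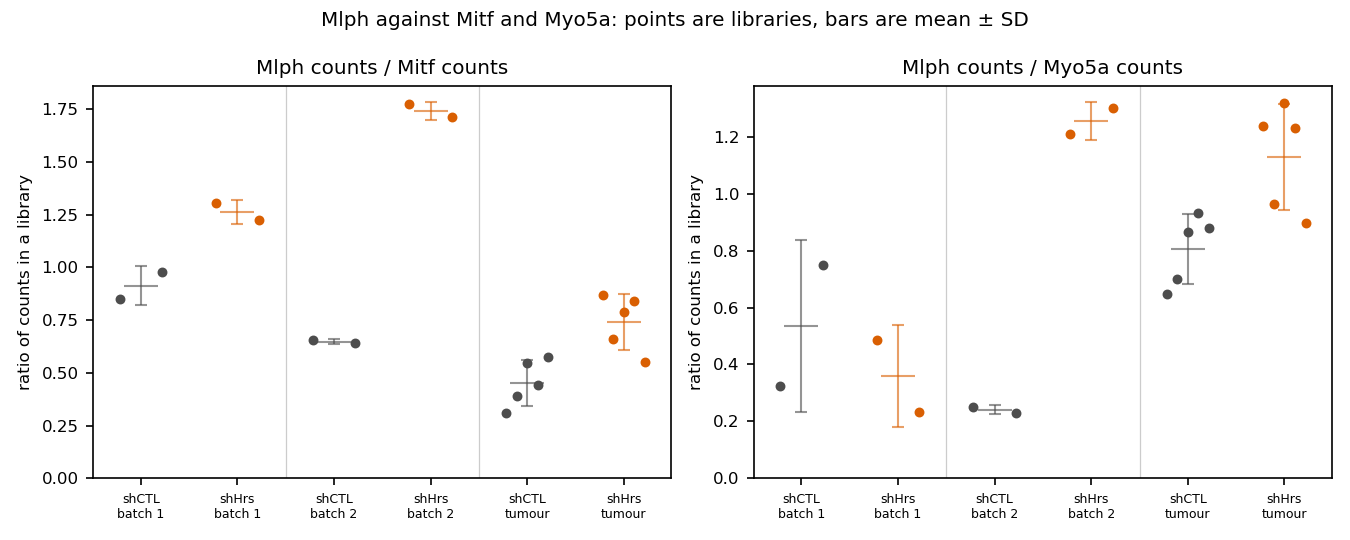
Ratio of Mlph counts to Mitf counts (left) and to Myo5a counts (right) in each library, by group; points are libraries and bars the mean ± SD. Mlph over Mitf is higher in all 4 shHrs cultures than in the controls of their batch, and in tumours the groups overlap by 1 library on each side.

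With either shHrs library of batch 1 alone, the genes gave different pictures. Replicate 2 was 5.54-fold below the mean of the other 3 batch 1 libraries for Mitf, 8.22-fold for Mc1r, 4.85-fold for Mlph, 2.60-fold for Sox10 and 2.4-fold for Myo5a, and it was 2.21-fold above them for Pax3. Rab32 and Rab38 were within the range of the other 3. Against the controls, a fit with replicate 2 as the lone shHrs library of batch 1 put Mitf at -2.34, Sox10 at -1.40 and Pax3 at 1.29. Mc1r was at -2.97, Mlph at -1.92, Rab32 at -0.13, Rab38 at 0.17 and Myo5a at -0.93 in that fit. A test would assume that the lone library varies like those of the other groups, so effect sizes alone are given here. With replicate 1 as the lone library all 8 changes were positive. Mitf was at 0.48, Sox10 at 0.08, Pax3 at 0.52, Mc1r at 0.31, Rab32 at 0.48, Rab38 at 0.46, Mlph at 1.00 and Myo5a at 0.92.

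**Figure D4:**
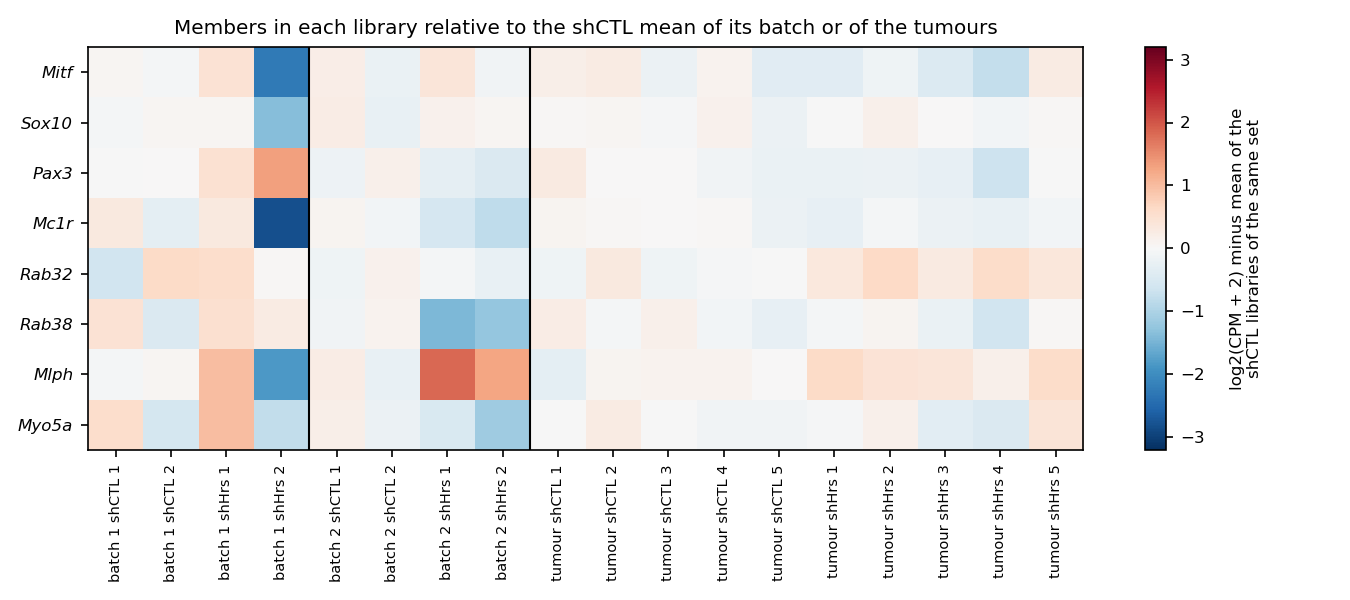
Each library's log2(CPM + 2) minus the mean of the shCTL libraries of its batch or of the tumours (colour scale, log2) for 8 of the 9 genes; Ednrb is left out because it was near 0 in cultures. Batch 1 shHrs replicate 2 is the column in which Mitf, Sox10, Mc1r, Mlph and Myo5a are low and Pax3 is high.

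Counted over the comparisons, batch 1 had 0 of 8 tested members called by edgeR, by DESeq2 and by limma voom, with 1 at an unadjusted p under 0.05. For comparison, these tools called 0%, 1.74% and 0% of all genes there, and 9.38% were under the unadjusted level. Batch 2 had 1 of 8 called (Rab38) by each of the 3 tools, with 1 under an unadjusted p of 0.05. Of all genes edgeR called 4.03% in either direction and 2.43% as lower, DESeq2 called 15.4% and limma voom 5%, and 27.9% were under the unadjusted level. Non-overlapping groups say little with 2 libraries on each side. They were seen for 1 of 8 members in batch 1, where 32.1% of genes did so, and for 5 of 8 in batch 2 (Mlph higher, Pax3, Mc1r, Rab38 and Myo5a lower), where 69.7% did. Over both batches 0 of 8 members were called by edgeR, DESeq2 or limma voom, with 0 under an unadjusted p of 0.05, where these tools called 0%, 2.39% and 0.0396% of all genes and 13.3% were under the unadjusted level. For the difference between batches edgeR called 0 of 8 and limma voom 0, with 2 under an unadjusted p of 0.05, against 0.155% and 0.101% of all genes called and 20.3% under the unadjusted level. DESeq2 called 2 of 8 (Pax3 and Rab38), where it called 7.91% of all genes.

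In tumours edgeR called 0 of 9 members and limma voom 0, with 4 under an unadjusted p of 0.05 (Pax3, Mc1r, Rab32 and Mlph), against 0.545% and 0.59% of all 13215 genes called and 14.1% under the unadjusted level. DESeq2 called 2 of 9, Rab32 and Mlph, both higher, where 4.51% of its genes were called and 2.32% called higher. The groups did not overlap for 1 of 9 members (Mlph), against 4.28% of all genes. The median change of the members was 0.20 in batch 1, -0.32 in batch 2 and -0.04 in tumours, beside medians of 0.01, -0.05 and 0.01 over all genes. When the tumour effect was set against the culture effect averaged over the batches, 0 of 8 were called by edgeR, DESeq2 or limma voom, which called 3.61%, 11% and 3.18% of all genes. An unadjusted p under 0.05 was met by 1 of 8, against 21% of all genes. That 1 was Pax3, at -0.55 (SE 0.23, edgeR adjusted p = 0.176).

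Tumour pieces also differ in the cells they hold, and in bulk RNA fewer cells of a type cannot be told apart from less RNA per cell. Of the 14 tested leukocyte markers all 14 were positive in shHrs over shCTL, with a median of 0.60 and 0 called, and the 21 markers of that list summed to 39.5 to 603 CPM in shCTL and 224 to 1033 CPM in shHrs. Muscle markers were positive in 8 of 8 tested, with a median of 2.63 and 0 called, and summed to 5.27 to 194 against 22.7 to 862 CPM. Fibroblast markers (6 of 10 positive) summed to 305 to 3327 against 288 to 1979 CPM. Schwann cell markers, 7 of 8 positive with 0 called and a median of 0.39, summed to 229 to 281 against 280.5 to 373 CPM, but were also at 126 to 339 CPM in the cultures. Keratinocyte markers stayed at or under 2.74 CPM in all tumours. Melanoma markers were positive in 5 of 8 tested, with a median of 0.08. EdgeR called 1 of these 8 higher, where it called 0.545% of all genes in either direction. That 1 was S100b, and none of the pigment genes of the list was called. The shHrs tumour 4 held the highest muscle and leukocyte sums, and of its group the lowest Mitf, Sox10, Pax3, Rab38, Mlph and Myo5a. Its Mc1r, Ednrb and Rab32 were not the lowest of the group. Without that tumour and shCTL tumour 5, the tumours highest in muscle and fibroblast markers of each group, the changes of Mlph and Rab32 were 0.49 (SE 0.11) and 0.40 (SE 0.12), with edgeR adjusted p of 0.0684 and 0.145. The part of the other marker lists in these values was not tested.

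Levels were compared between the genes per kilobase of exonic length, as CPM per kb. In shCTL tumours the order was Sox10 at 236 ± 20.1, Rab38 at 189 ± 26.0, Mitf at 176 ± 31.1, Mlph at 89.1 ± 10.5, Mc1r at 58.6 ± 4.02, Myo5a at 40.4 ± 4.76, Pax3 at 32.6 ± 4.26, Rab32 at 18.3 ± 2.58 and Ednrb at 3.10 ± 1.08 CPM per kb (SD, n = 5). Neighbours in this order lay farther apart than the sum of their SDs except Rab38 and Mitf, and Myo5a and Pax3. In shHrs tumours the order of the genes was the same, but fewer neighbours lay that far apart. Those that did were Sox10 and Rab38, Mlph and Mc1r, and Rab32 and Ednrb. In shCTL cultures of batch 2 the order began with Rab38 at 297 ± 32.4 and Sox10 at 156 ± 34.3 CPM per kb (SD, n = 2), and the 6 genes from Mc1r at 35.9 ± 3.18 down to Rab32 at 18.5 ± 2.63 were each within the spread of the next. The top pair changed places in the shHrs cultures of that batch, with Sox10 at 166 ± 7.43 and Rab38 at 117 ± 11.8, and Mlph moved up to 58.0 ± 15.8 CPM per kb (SD, n = 2 each). In shCTL cultures of batch 1 Rab38 at 229 ± 98.6 and Sox10 at 206 ± 10.1 CPM per kb did not differ beyond their spread.

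The wider pathway was read from 4 lists chosen with earlier results of these data known. Their counts stand beside these shares of all genes in batch 1, batch 2 and tumours: 9.38%, 27.9% and 14.1% at an unadjusted p under 0.05, and 1.74%, 15.4% and 4.51% called by DESeq2. Of 23 other lineage regulators in the table, such as Kit, Lef1, Tfap2a and Sox9, 17 were tested in the cultures and 19 in tumours. One passed by edgeR: Creb1, which encodes the cyclic AMP response factor CREB, in batch 2. It was at 82.5 and 93.9 CPM in shCTL and 47.4 and 42.6 CPM in shHrs there and fell by 1.02 on the log2 scale (SE 0.21, edgeR adjusted p = 0.0403). The call was lost in 7 of its 15 alternatives, among them each of the 4 batch 2 libraries left out (adjusted p 0.121 to 0.324). In batch 1 Creb1 held 67.1 and 66.3 CPM in shCTL and 75.1 and 88.6 CPM in shHrs, with the shHrs libraries above the controls. The median of the list was -0.13 in batch 1, -0.02 in batch 2 and 0.02 in tumours, with 0, 4 and 3 of its genes at an unadjusted p under 0.05 and, by DESeq2, 0, 3 (Creb1, Kit and Kitl) and 0 called.

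Of the 17 genes of the melanosome transport list, such as Rab27a, Sytl2 and Kif5b, 15 were tested. EdgeR and limma voom called 0 of these in batch 1, batch 2 and tumours. Unadjusted p under 0.05 was met by 2, 4 and 4 of them, and DESeq2 called 0, 3 and 3. For this list and the next, the shares of all genes under that level were 9.38%, 27.9% and 14.1%. DESeq2 called 1.74%, 15.4% and 4.51% of all genes. The medians were 0.18, -0.17 and -0.06. Of the 26 genes of the BLOC, HPS and AP complexes and their partners, which sort melanosome cargo, edgeR and limma voom also called 0 in each, with 2, 7 and 4 at an unadjusted p under 0.05 and 1, 4 and 3 called by DESeq2, around medians of -0.005, 0.07 and 0.03. With shHrs replicate 2 of batch 1 alone, the batch 1 medians of the regulators, the transport list and the cargo list were -0.28, -0.19 and -0.14. With replicate 1 alone they were -0.0025, 0.08 and 0.11. As for the members, effect sizes alone are given from fits with a lone shHrs library.

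The 15 tested targets of MITF, mostly melanin genes such as Tyr, Pmel and Mlana, differed in sign between the 2 shHrs libraries of batch 1. With replicate 1 alone the change was positive for all 15 (median 0.99). With replicate 2 alone it was negative for 13 of 15 (median -1.01). Effect sizes alone are given from these fits with a lone shHrs library. With both libraries of batch 1 the fitted change was positive for 13 and negative for 2, with a median of 0.26, and in batch 2 it was positive for 1 and negative for 14, with a median of -1.36. Mitf itself was at 0.10 in batch 2. EdgeR called 0 of the 15 in either batch, with 1 and 8 at an unadjusted p under 0.05. DESeq2 called 0 and 5 of them, and limma voom 0 and 1. Of all genes 9.38% and 27.9% were under the unadjusted level in batch 1 and batch 2. EdgeR called 0% and 4.03% of all genes there, DESeq2 1.74% and 15.4%, and limma voom 0% and 5%. For the difference between batches, 1 was positive and 14 negative (median -1.61), with 0 called by edgeR or limma voom, 4 at an unadjusted p under 0.05 and 4 called by DESeq2, against 20.3% and 7.91% of all genes. In tumours 10 were positive and 5 negative, with a median of 0.15 and 0 called by edgeR or limma voom. There 2 were at an unadjusted p under 0.05, against 14.1% of all genes. DESeq2 called 2 (Gpnmb and Mlana), against 4.51% of all genes.

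Co-variation of the genes was measured as Pearson's r of log2 CPM after each group's mean was removed, which describes libraries that share their batch and depth. Over all 18 libraries r was 0.94 for Mitf with Sox10, 0.92 for Mitf with Mc1r, 0.91 for Mitf with Mlph and 0.79 for Mlph with Myo5a. Without the 2 batch 1 shHrs libraries (n = 16) these were 0.70, 0.57, 0.52 and 0.47, so their height rests in part on that pair. Within the 10 tumours r was 0.74 for Mitf with Sox10, 0.86 for Mitf with Myo5a, 0.87 for Sox10 with Mc1r, 0.53 for Mlph with Myo5a, 0.91 for Pax3 with Rab38 and 0.32 for Mitf with Mlph. Rab32 and Rab38 gave -0.29.

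Among 9702 genes averaging 3 or more in log2 CPM, those most like Mitf over the 18 libraries were B4galt6 (r = 0.97), Gbx2 (0.96) and Eps8 (0.96). The genes most like Sox10 were Nsdhl, Tk1 and Slc25a10 (0.97 each), and those most like Rab38 were Slc2a5 (0.92), Decr1 (0.91) and Tpd52 (0.89). Left without the batch 1 shHrs libraries (n = 16), the nearest genes included Rdh11 and Arl10 for Mitf (0.87 each), Patl1 (0.88), Snx12 (0.86) and Mcm2 (0.86) for Sox10, and Lta4h (0.94), Slc2a5 (0.93) and Mboat2 (0.92) for Rab38. Only Slc2a5, next to Rab38, stayed among the nearest 3 in both sets of libraries.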

How the data were processed

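RNA of 18 libraries was measured as raw counts per gene symbol, deposited by the authors as whole numbers with no normalization. Per the submitters' processing notes, STAR 2.4.0h2, DESeq and mm10 were used. For the counting tool, the annotation and the strand setting nothing is given in the sources used here. Counts were analysed in R 4.3.3 with edgeR 4.0.16 (filterByExpr, minimum count 10, TMM, quasi-likelihood F test, two-sided, Benjamini-Hochberg over all genes tested, threshold 0.05). The 8 cultures were fitted with a mean per batch and treatment, or with batch as a term for both batches, the 10 tumours on their own, and all 18 libraries for the difference between tumours and cultures. Each SE was derived from the fold change and the F value of its test. Alternatives used DESeq2 1.42.0, limma 3.58.1 voom, other scalings, no filter, a replicate block and left-out libraries. Log2 CPM carry a pseudocount of 2. Positions and exonic lengths are from GENCODE on GRCm38, the assembly of mm10. The 9 members were all named whatever their result, list genes where called (up to 4 a comparison), and the 3 genes nearest to Mitf, Sox10 and Rab38 by r; list genes called by DESeq2 alone were named after their values were seen, and 1 gene that the rule took is not reported here. Of 170 list entries 3 were matched by an older symbol and 1 was absent. The members and lists were chosen with earlier results of these data known. The procedure was also run on simulated counts, whose genes had a common mean over the libraries of a comparison, apart from set changes. Those counts held no batch differences and no outlying library. Libraries of a group differed by more than sampling noise. The labels do not say that replicate numbers pair libraries, so numbers were not used as pairs in the main fits.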

Additional observations from a re-analysis of the deposited data

Results flagged for a closer look

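Of the 18 groups of 5 tumour values (9 genes, each in shCTL and shHrs), 3 held 1 library far from the other 4, where chance gives about 1 in 20. Rab32 was at 53.2 CPM in shCTL tumour 2 against 38.7 to 42.4 CPM in the other 4, and Myo5a at 718 CPM in the same tumour against 546 to 594 CPM. Mlph was at 380 CPM in shCTL tumour 1 against 479.9 to 514 CPM. All 3 lie among the controls, and without shCTL tumour 1 or 2 no member was called in tumours by edgeR.

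The effect on Pax3 had opposite signs in the culture batches, 0.96 in batch 1 and -0.44 in batch 2 on the log2 scale, with both shHrs libraries above both controls in batch 1 and below them in batch 2. The difference of -1.40 had an adjusted p of 0.133 by edgeR and 0.0440 by DESeq2, and over its 14 alternatives the adjusted p ran from 0.0126 to 0.421.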

How the results depend on the processing

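With 2 libraries per culture group, single libraries set most limits. Leaving out each library in turn gave 0 to 1496 genes called in batch 1, 0 to 2732 in batch 2, 0 to 164 over both batches, 0 to 1968 for the difference between batches, 32 to 158 in tumours and 125 to 2194 for the difference between tumours and cultures, where the full sets gave 0, 520, 0, 20, 72 and 522. Members called ran from 0 to 5, 0 to 2, 0 to 0, 0 to 6, 0 to 1 and 0 to 3. All batch 2 calls, Rab38 and Creb1 included, were lost without any 1 of the 4 batch 2 libraries. Leaving out a culture kept a lone library in its group. Those counts assume that the lone library varies like the libraries of the other groups.

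Signs that turned when a library was left out had these ranges on the log2 scale. In batch 1 they were Mitf -2.34 to 0.48, Sox10 -1.40 to 0.078, Mc1r -2.97 to 0.31, Rab32 -0.31 to 1.02, Rab38 -0.056 to 0.83, Mlph -1.92 to 1.00 and Myo5a -0.93 to 0.92. In batch 2 they were Mitf -0.19 to 0.38 and Sox10 -0.18 to 0.29. Over both batches they were Mitf -0.73 to 0.25, Sox10 -0.48 to 0.052, Pax3 -0.039 to 0.49 and Rab32 -0.25 to 0.25. For the difference between batches they were Mitf -0.38 to 2.47, Sox10 -0.043 to 1.47, Mc1r -1.05 to 2.26, Rab32 -1.23 to 0.095 and Myo5a -1.75 to 0.13. In tumours they were Sox10 -0.030 to 0.057, Ednrb -0.16 to 0.19 and Myo5a -0.16 to 0.061, and for tumours against cultures Mitf -0.59 to 0.80, Sox10 -0.068 to 0.65, Mlph -0.86 to 0.58 and Myo5a -0.094 to 0.82.

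DESeq2 called 220 genes in batch 1, 1988 in batch 2, 301 over both batches, 980 for the difference between batches, 549 in tumours and 1410 for tumours against cultures, with 2 members for the difference between batches and 2 in tumours. No filter gave 438, 2224, 74 and 1311 genes in the first 4 of these, with 2 members in batch 2 (Rab38 and Mlph) and 2 for the difference between batches (Pax3 and Rab38). Limma voom called 5 genes over both batches and 13 for the difference. RLE and upper-quartile scaling each left 0 members in batch 2. The 4 libraries of batch 2 alone gave 4303 genes and 4 members (Mc1r, Rab38, Mlph and Myo5a), and a fit of all 18 libraries gave 29 genes in tumours. The cause was not tested. Reversed values were Mlph -0.45 in batch 1, Mc1r 0.56 for the difference between batches, Ednrb 0.044 in tumours and Mitf 0.094 for tumours against cultures with voom. Without both muscle-rich tumours, an alternative chosen after seeing the data, Sox10 was at -0.0079, Ednrb at 0.20 and Myo5a at 0.032. The share of higher calls moved from 85.0% to 51.0% with DESeq2 and 47.6% with no filter for the difference between batches, from 43.1% to 55.3% without those 2 tumours, and from 58.8% to 70.1% with no filter for tumours against cultures. Batch 1 values of the lists with either shHrs library alone were also chosen after seeing the data. Of 896 alternative values for single genes, 801 kept their sign and side of the threshold.

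The labels do not say that replicate numbers pair libraries. Deviations of same-numbered libraries correlated at 0.19 in batch 1, 0.02 in batch 2 and -0.50 to 0.38 in tumours. Each culture correlated best with its own number. With 2 libraries per culture group a batch gives a single r, so the cultures cannot decide on pairing. In tumours only replicate 3 correlated best with its own number. With the replicate block edgeR called 1 gene in batch 1, 464 in batch 2, 0 over both batches, 18 for the difference between batches, 2 in tumours and 373 for tumours against cultures, Rab38 stayed called in batch 2 and Creb1 did not (adjusted p = 0.0616), and Mlph in batch 1 (-0.45), Mc1r for the difference between batches (0.54) and Mitf for tumours against cultures (0.087) changed sign.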
